A study of Mus musculus with 6 samples.

Results

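PPARgamma, encoded by *Pparg*, and 9 genes of lipid uptake, droplet formation and triglyceride synthesis known as its targets or as genes that act with it were examined in mouse liver RNA-seq. The 10 genes (*Pparg*, *Cd36*, *Vldlr*, *Fitm1*, *Fitm2*, *Cidea*, *Cidec*, *Plin4*, *Fabp4* and *Mogat1*) were taken by symbol from the 23282 genes in the count files, and each symbol was found. The set was chosen by its behaviour in the same comparison, because *Pparg*, *Fitm1* and *Vldlr* were lower in knockout livers while lipogenic genes were higher. Differences of these 10 genes between the genotypes are therefore given as a description, without *p* values.

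The study compared 3 *Alb-Cre;Tcf7l2 f/f* (KO) livers with the livers of 3 wild-type (*Tcf7l2 f/f*) littermates. All mice were 12 weeks old and C57BL/6 by the labels, given in the study's methods as male and C57BL/6N, sampled after a 24 h fast and 24 h of refeeding on normal chow, and both groups carried the floxed *Tcf7l2* allele. Cre was driven by the albumin promoter, so deletion was aimed at hepatocytes and other liver cells kept the gene. Libraries are named by their labels as KO 7-2, KO 7-3 and KO 8-3 and as WT 7-2, WT 8-1 and WT 8-3, each was taken as 1 mouse, and errors and *p* values measure the spread between these libraries only.

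PPARgamma is a nuclear receptor that binds DNA as a heterodimer with a retinoid X receptor and is activated by fatty acids and by thiazolidinedione drugs. It drives the adipocyte programme of fatty acid uptake and triglyceride storage. In healthy mouse liver it is a minor PPAR beside PPARalpha, and it is known for raising lipid storage genes such as *Cd36*, *Cidec* and *Mogat1* when liver fat is high. Macrophages and stellate cells of the liver are also known to express it.

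The libraries held 60619938 to 133384586 counts. Values below are CPM, the counts of a gene scaled to a fixed library total, on library sizes scaled by TMM, a factor that lines up the bulk of genes. Genes with symbols that begin with *Mup* (major urinary proteins) took 18.5% to 28.7% of the counts in KO libraries. In wild-type libraries they took 31.7% to 54.3%, and their part in the effect of scaling was not tested. This scaling mattered for the fold changes. The median log2 fold change (KO over wild-type) of all 14076 tested genes was −0.017 with TMM and 0.613 with unscaled library sizes. Of those genes, edgeR's quasi-likelihood test called 10 higher (0.071%) and 53 lower (0.377%) in KO livers at an adjusted *p* under 0.05, and with unscaled library sizes it called 2936 higher (20.9%) and 88 lower (0.625%). *Tcf7l2* itself stood at 3.31, 2.74 and 3.33 CPM in KO livers, against 4.88, 6.13 and 6.85 CPM in wild-type livers, with a log2 fold change of −0.93 ± 0.19 (SE) and an adjusted *p* of 0.0856 by edgeR and 0.00411 by DESeq2. The counts are 1 value per gene, so the floxed exon could not be looked at alone.

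*Pparg* lies on chromosome 6 from 115360879 to 115490404 (GRCm38.p6, which is mm10). Its counts do not tell its start sites apart, and which of its transcripts were counted is not given. The 3 *Pparg* starts in the RefSeq promoter table are shown first, each as 250 bases before and 50 bases after the start, read on the gene's strand from 5′ to 3′. Capitals mark the nuclear receptor half-site AGGTCA on either strand, the element to which PPARgamma and its relatives bind in pairs.
Pparg start 1, chr6:115360894-115361193, plus strand: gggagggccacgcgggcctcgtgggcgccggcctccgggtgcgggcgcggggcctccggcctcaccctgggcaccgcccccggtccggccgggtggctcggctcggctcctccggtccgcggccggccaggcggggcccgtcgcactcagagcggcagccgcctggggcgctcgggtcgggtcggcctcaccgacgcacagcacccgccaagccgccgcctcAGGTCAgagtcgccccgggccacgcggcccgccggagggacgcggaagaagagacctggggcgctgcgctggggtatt
Pparg start 2, chr6:115362099-115362398, plus strand: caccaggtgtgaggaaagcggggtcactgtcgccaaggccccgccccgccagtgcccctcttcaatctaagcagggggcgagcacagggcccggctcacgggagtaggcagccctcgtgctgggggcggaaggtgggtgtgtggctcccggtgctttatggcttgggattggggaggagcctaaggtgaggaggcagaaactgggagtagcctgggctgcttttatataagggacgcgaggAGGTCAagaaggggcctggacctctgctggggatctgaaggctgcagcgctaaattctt
Pparg start 3, chr6:115421816-115422115, plus strand: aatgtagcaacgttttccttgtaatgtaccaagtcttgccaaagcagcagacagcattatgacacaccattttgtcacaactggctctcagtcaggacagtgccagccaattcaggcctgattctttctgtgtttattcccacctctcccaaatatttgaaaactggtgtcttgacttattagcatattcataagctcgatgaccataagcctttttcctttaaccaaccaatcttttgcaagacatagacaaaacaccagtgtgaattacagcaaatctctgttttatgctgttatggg

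The window of *Pparg* start 1 holds 1 half-site that begins 28 bases before the start, and that of start 2 holds 1 that begins 9 bases before the start. The window of start 3 holds 0. The half-site was in 16.3% of the 32851 promoter windows of the table outside chromosome 18, which was left out. The windows also differed in base composition, with 80.3% G and C at start 1, 62.7% at start 2 and 40.3% at start 3, against a median of 52.7% over all windows.

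*Pparg* had the largest difference of the members that passed the filter on low counts. It had 11, 46 and 11 counts in KO 7-2, KO 7-3 and KO 8-3, against 153, 210 and 193 counts in WT 7-2, WT 8-1 and WT 8-3. These were 0.13, 0.606 and 0.128 CPM in KO livers and 2.30, 2.51 and 2.84 CPM in wild-type livers. Every KO library was below every wild-type library, and KO 7-3 was the highest of the KO libraries by far. This was a log2 fold change of −3.16 ± 0.53 (SE), or 8.96-fold lower in KO livers. Only 28 of the 14076 tested genes had a lower log2 fold change.

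The KO libraries spread widely in *Pparg*. The 95% interval of KO 7-3 (exact Poisson, for counting error only) was 0.444 to 0.808 CPM, and it did not reach the intervals of KO 7-2 (0.0648 to 0.232 CPM) or KO 8-3 (0.0637 to 0.228 CPM). KO 7-3 also had the lowest *Tcf7l2* level of the 6 libraries, at 2.74 CPM against 3.31 CPM in KO 7-2 and 3.33 CPM in KO 8-3. No counting interval was taken for *Tcf7l2*, and a link between the levels of these genes was not tested. The wild-type libraries differed by 1.23 times from lowest to highest, against 4.75 times among the KO libraries. The SD of log2 CPM within groups was 0.84 for *Pparg*, larger than for 95.4% of tested genes, whose median was 0.27. Without KO 7-3 the log2 fold change was −4.29. In bulk liver, fewer cells of a type and less RNA per cell cannot be told apart.

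**Figure D1:**
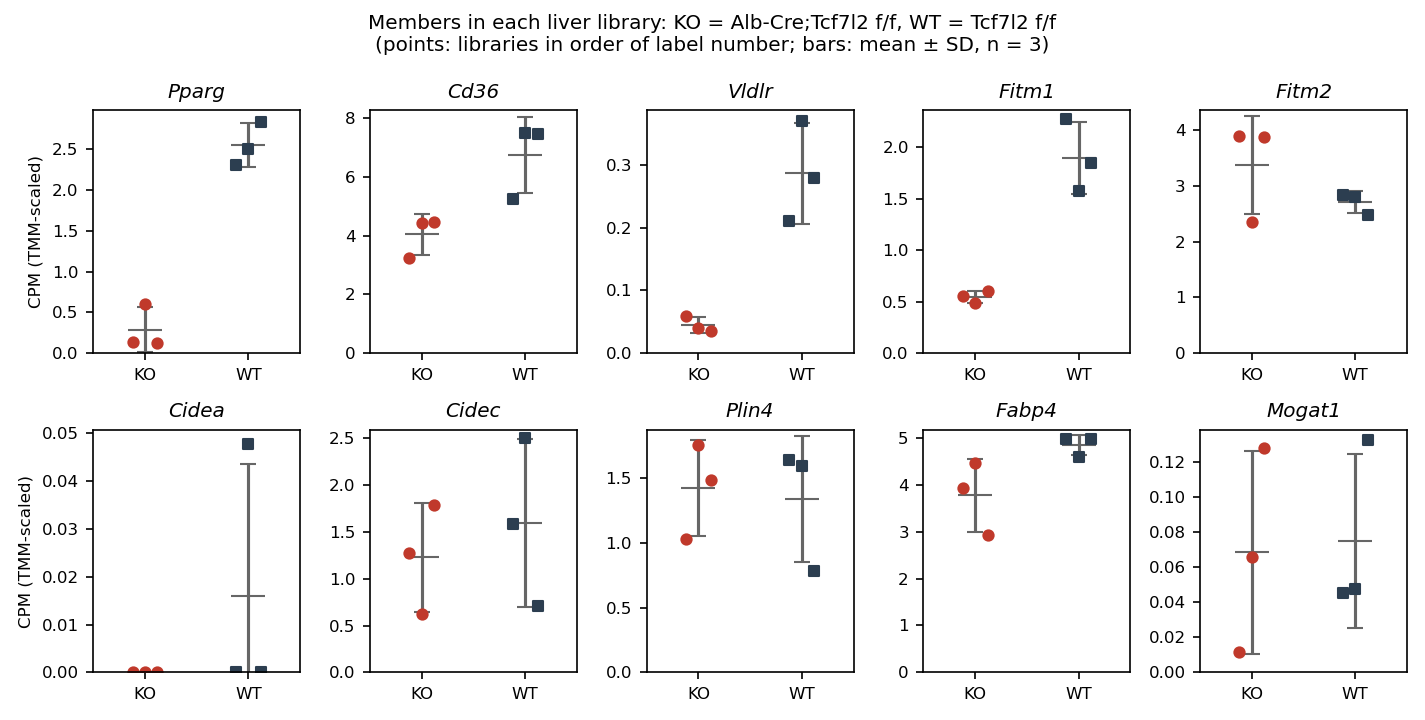
CPM (TMM-scaled, linear axes from 0, a separate scale for each gene) of the 10 genes in 3 KO and 3 wild-type livers, with each point a library and bars the mean ± SD. For *Pparg*, *Cd36*, *Vldlr*, *Fitm1* and *Fabp4* every KO point lies below every wild-type point, and *Cidea* has counts in 1 library only.

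The genes of fatty acid uptake were both lower in each KO liver than in each wild-type liver, by very different amounts and at very different levels. *Cd36* encodes the fatty acid translocase, a scavenger receptor that takes up long-chain fatty acids, and lies on chromosome 5 from 17781690 to 17888959. Its promoter window is shown because it is the only window of a member other than *Pparg* that holds a half-site. The half-site begins 228 bases before the start and lies on the opposite strand, so it is printed here as TGACCT.
Cd36, chr5:17835847-17836146, minus strand: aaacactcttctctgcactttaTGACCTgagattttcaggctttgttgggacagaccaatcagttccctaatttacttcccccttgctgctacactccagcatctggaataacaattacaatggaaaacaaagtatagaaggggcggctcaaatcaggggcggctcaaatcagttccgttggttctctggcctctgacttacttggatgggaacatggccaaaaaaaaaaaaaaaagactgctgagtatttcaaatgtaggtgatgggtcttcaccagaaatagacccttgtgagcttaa

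*Cd36* stood at 3.22, 4.43 and 4.48 CPM in KO livers, against 5.25, 7.50 and 7.47 CPM in wild-type livers. The means were 4.04 ± 0.71 CPM in KO livers and 6.74 ± 1.29 CPM in wild-type livers (SD, n = 3 each). The groups did not overlap, and the lowest library of each group was the one numbered 7-2. With a log2 fold change of −0.74 ± 0.21 (SE), *Cd36* was 1.67-fold lower in KO livers. With unscaled library sizes it was −0.09, or −0.71 relative to the median of all genes on that scale.

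*Vldlr* encodes the very low density lipoprotein receptor, which binds triglyceride-rich lipoproteins and is best known from heart, muscle and fat. It lies on chromosome 19 from 27216480 to 27254231, where it overlaps the gene model *Gm35438*, and the table gives a pair of starts. Its windows are shown because *Vldlr* had the second largest difference of the set, and neither holds the half-site.
Vldlr start 1, chr19:27216234-27216533, plus strand: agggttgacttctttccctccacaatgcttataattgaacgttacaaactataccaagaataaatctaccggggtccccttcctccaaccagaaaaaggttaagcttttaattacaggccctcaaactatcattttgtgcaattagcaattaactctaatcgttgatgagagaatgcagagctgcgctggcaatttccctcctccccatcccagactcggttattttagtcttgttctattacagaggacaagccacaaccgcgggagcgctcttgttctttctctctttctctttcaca
Vldlr start 2, chr19:27216770-27217069, plus strand: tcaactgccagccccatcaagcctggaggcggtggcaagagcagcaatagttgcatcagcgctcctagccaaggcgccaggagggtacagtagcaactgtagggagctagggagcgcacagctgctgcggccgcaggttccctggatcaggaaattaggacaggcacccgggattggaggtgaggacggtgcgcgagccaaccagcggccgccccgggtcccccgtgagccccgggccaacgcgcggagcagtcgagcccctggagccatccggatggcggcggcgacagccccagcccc

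*Vldlr* was close to the limit of detection. It had 5, 3 and 3 counts in KO livers and 14, 31 and 19 counts in wild-type livers, or 0.059, 0.0395 and 0.0348 CPM in KO livers and 0.211, 0.37 and 0.279 CPM in wild-type livers. The groups did not overlap, but *Vldlr* passed the filter on low counts only through the wild-type libraries. It would not have been among the tested genes had both groups stood at the KO level. The 11 counts of all KO libraries and 64 of all wild-type libraries gave a ratio of 0.152 (KO over wild-type) after scaling, with a 95% counting interval of 0.0723 to 0.291 (exact Clopper-Pearson). The fitted log2 fold change was −2.65 ± 0.54 (SE). Reads carry no molecular identifiers, so the counting intervals in this text cover counting error only.

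*Fitm1* and *Fitm2* encode the 2 fat storage-inducing transmembrane proteins, which sit in the endoplasmic reticulum and act when lipid droplets form. *Fitm1* is best known from skeletal and heart muscle, whereas *Fitm2* is widely expressed. In these livers the libraries of the genotypes were separate for *Fitm1* and overlapped for *Fitm2*. *Fitm1* lies on chromosome 14 from 55575674 to 55576952, and its window is shown because *Fitm1* had a large difference with KO libraries close to each other. It holds no half-site.
Fitm1, chr14:55575424-55575723, plus strand: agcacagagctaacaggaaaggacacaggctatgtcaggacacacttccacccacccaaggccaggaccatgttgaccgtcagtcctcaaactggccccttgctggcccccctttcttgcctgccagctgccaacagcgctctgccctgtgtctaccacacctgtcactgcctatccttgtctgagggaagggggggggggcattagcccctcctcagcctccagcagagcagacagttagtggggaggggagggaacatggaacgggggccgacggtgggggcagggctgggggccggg

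*Fitm1* had 47, 37 and 52 counts in KO livers and 151, 132 and 126 counts in wild-type livers. These were 0.555, 0.487 and 0.604 CPM in KO livers and 2.27, 1.58 and 1.85 CPM in wild-type livers. The KO libraries were within 1.24 times of each other, and each was well below the lowest wild-type library, WT 8-1. A log2 fold change of −1.79 ± 0.27 (SE) made *Fitm1* 3.45-fold lower in KO livers. Unlike *Pparg*, *Fitm1* was not set apart in KO 7-3, which had the lowest value of the group.

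*Fitm2* (chromosome 2, 163468703 to 163472629, overlapping *2310001K24Rik*) stood at 3.90, 2.36 and 3.88 CPM in KO livers, against 2.83, 2.81 and 2.48 CPM in wild-type livers. KO 7-2 and KO 8-3 were above every wild-type library and KO 7-3 was below every one, so the groups overlapped. On the log2 scale the difference was 0.32 ± 0.23 (SE).

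The droplet coat and fusion genes showed no separation of the genotypes. *Cidec* (chromosome 6, 113424634 to 113435760, overlapping *Gm52871*) encodes the protein known in mice as FSP27, which joins lipid droplets into larger ones. It stood at 1.28, 0.619 and 1.79 CPM in KO livers, against 1.58, 2.50 and 0.705 CPM in wild-type livers. The values ranged over 2.89 times among KO livers and 3.54 times among wild-type livers, and the within-group SD of log2 CPM was larger than for 95.3% of tested genes. The log2 fold change was −0.38 ± 0.48 (SE), and it was 0.11 without WT 8-1, the library with the most *Cidec*.

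*Plin4* (chromosome 17, 56100587 to 56109948, overlapping *Hdgfl2*) encodes perilipin 4, a coat protein of small droplets in adipocytes. It stood at 1.03, 1.75 and 1.49 CPM in KO livers, against 1.64, 1.59 and 0.779 CPM in wild-type livers. WT 8-3 was the lowest and KO 7-3 the highest of the 6 libraries, and the groups overlapped. The log2 fold change was 0.09 ± 0.34 (SE), and it was −0.19 without WT 8-3 and −0.09 without KO 7-3.

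*Cidea*, a relative of *Cidec* best known from brown fat and from fatty liver, had 0 counts in each KO library, 4 counts in WT 8-1 and 0 in the other wild-type libraries. It did not pass the filter on low counts. A count of 0 allows up to 3 counts, which was 0.0348 to 0.0395 CPM in the KO libraries. The 4 counts of WT 8-1 were 0.0478 CPM, with a counting interval of 0.013 to 0.122 CPM that takes in these limits, so no difference of *Cidea* was detectable at this depth.

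*Fabp4* (chromosome 3, 10204342 to 10208616) encodes a fatty acid chaperone that is abundant in adipocytes and is also made by macrophages and endothelial cells. It stood at 3.92, 4.45 and 2.94 CPM in KO livers, against 4.97, 4.60 and 4.98 CPM in wild-type livers. Every KO library was below every wild-type library, though KO 7-3 came close to WT 8-1. The log2 fold change was −0.36 ± 0.19 (SE). With unscaled library sizes it was 0.25, which was −0.37 relative to the median of all genes on that scale.

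*Mogat1* (chromosome 1, 78511060 to 78606964, overlapping *Gm39665*) encodes an acyltransferase that makes diacylglycerol from monoacylglycerol. It had 1, 5 and 11 counts in KO livers and 3, 4 and 9 counts in wild-type livers, and it did not pass the filter on low counts. The libraries numbered 8-3 were the highest of both groups. The 17 counts of all KO libraries and 16 of all wild-type libraries gave a ratio of 0.94 (KO over wild-type), with a 95% counting interval of 0.446 to 1.99.

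In all, 8 of the 10 members passed the filter on low counts, *Vldlr* only through wild-type livers. Of these, edgeR called 2 lower (*Pparg* and *Fitm1*) and 0 higher, beside backgrounds of 0.377% and 0.071%, and DESeq2 called 3 lower (*Pparg*, *Fitm1* and *Vldlr*) and 0 higher, beside backgrounds of 1.6% and 1.26% of 15037 genes. On quantile-normalised log2(count + 1) values limma called 2 lower (*Fitm1* and *Vldlr*, but not *Pparg*) and 0 higher, beside backgrounds of 0.192% and 0.0284%. Every KO library lay below every wild-type library for 5 of the 8 and above for 0, beside backgrounds of 9.08% and 10.2%. Nothing is read from these counts, since the set was chosen on this comparison. By edgeR the call of *Pparg* was lost when WT 7-2, WT 8-1, WT 8-3, KO 7-2 or KO 8-3 was left out, and that of *Fitm1* when any 1 of the 6 libraries was left out.

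**Figure D2:**
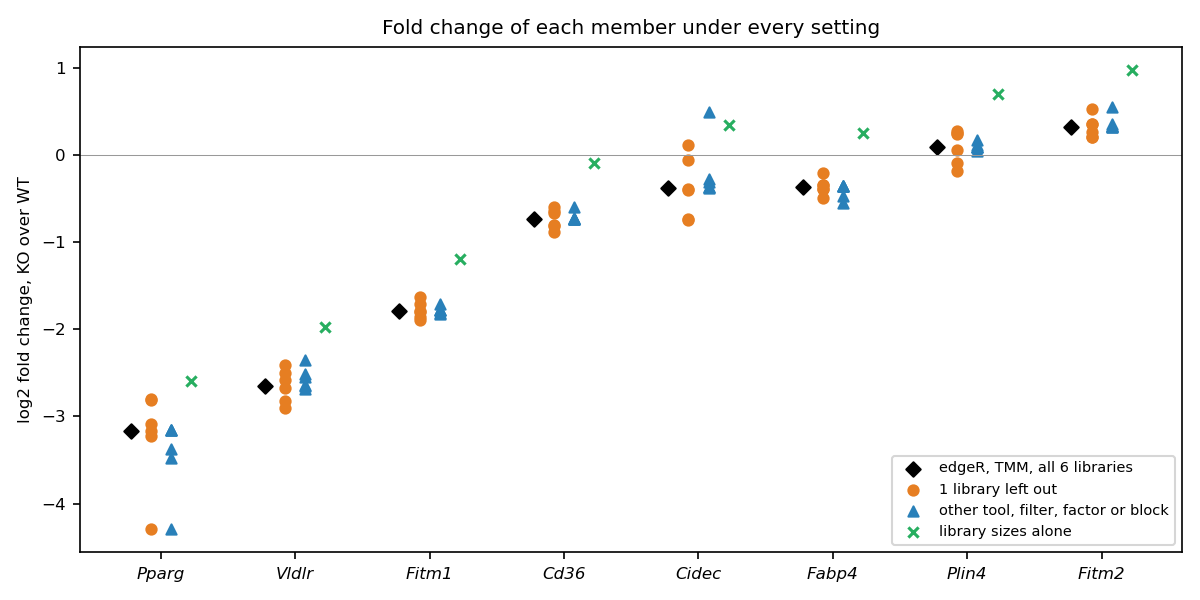
Log2 fold change (KO over wild-type) of the 8 members that passed the filter, under edgeR with TMM on all 6 libraries (black diamonds), with 1 library left out (orange circles), with another tool, filter, factor or block (blue triangles) and with unscaled library sizes (green crosses). *Pparg*, *Vldlr*, *Fitm1*, *Cd36* and *Fitm2* keep 1 sign throughout, whereas *Cidec*, *Plin4* and *Fabp4* each cross 0 in at least 1 setting.

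Levels were compared between genes only as CPM per kb of the canonical GENCODE transcript. In wild-type livers the order was *Fabp4* with 3.57 ± 0.16 CPM per kb, *Cd36* with 1.92 ± 0.37, *Fitm1* with 1.80 ± 0.33, *Pparg* with 0.931 ± 0.098 and *Fitm2* with 0.682 ± 0.049 CPM per kb (SD, n = 3). Below them came *Cidec* (0.557), *Plin4* (0.179), *Mogat1* (0.0606), *Vldlr* (0.0348) and *Cidea* (0.0126 CPM per kb). The libraries of *Cd36* and *Fitm1* overlapped, as did those of *Fitm2* and *Cidec*, of *Plin4* and *Mogat1*, of *Mogat1* and *Vldlr* and of *Vldlr* and *Cidea*. In KO livers *Pparg* stood at 0.105 ± 0.101 CPM per kb, rank 7 of the 10 against rank 4 in wild-type livers, and overlapped *Plin4* above it and *Mogat1* below it. *Fitm1* had rank 4 at 0.521 ± 0.055 CPM per kb in KO livers, below *Fitm2* at 0.851 ± 0.223 CPM per kb, without overlap of their libraries.

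**Figure D3:**
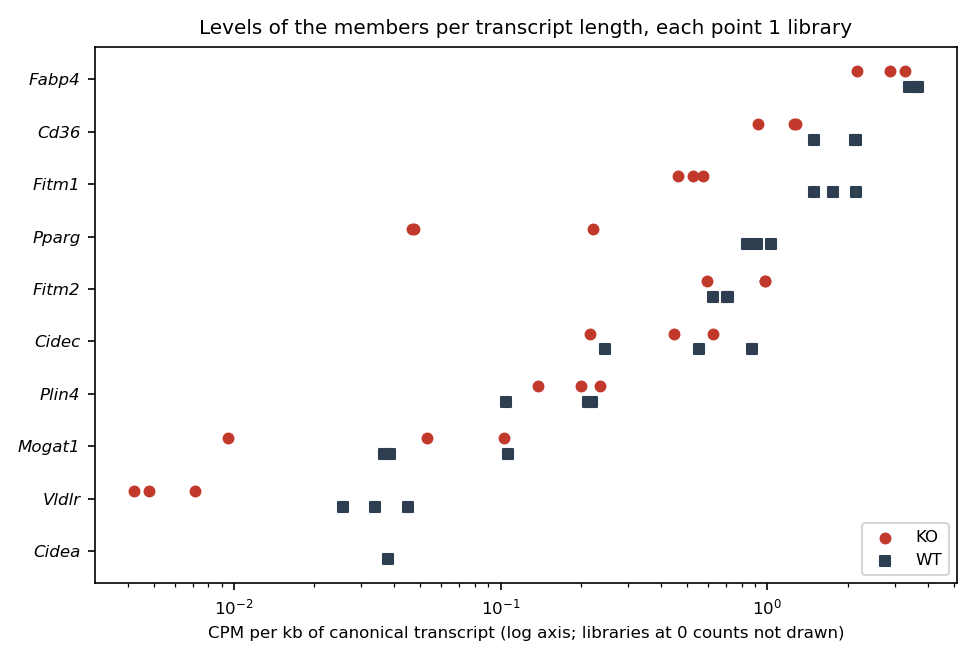
CPM per kb of canonical transcript (log axis) of the 10 genes in each library, ordered by the wild-type mean, with KO livers as circles above wild-type livers as squares. Libraries with 0 counts are not drawn, and *Pparg* in KO livers falls within the range of *Plin4* and *Mogat1*.

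The receptors and coregulators that act with or beside PPARgamma had log2 fold changes of −0.44 to 0.45. Of 20 such genes, all tested, edgeR called 0 in either direction, and so did DESeq2. Before adjustment 1 gene was higher and 0 lower with *p* under 0.05. The share of all genes past that unadjusted limit is not given here, so nothing is read from such counts, for this list or those below. The median log2 fold change was 0.06, with 14 above 0 and 6 below. Of all 14076 tested genes, 6745 were above 0 and 7330 below. With unscaled library sizes the median was 0.70, beside 0.613 for all genes. On that scale 7 were called higher, beside a background of 20.9%. *Ncoa1*, a nuclear receptor coactivator, had the smallest *p*, and its log2 fold change was 0.45 ± 0.14 (SE), for which the adjusted *p* was 0.228. It was followed by the coactivator *Ncoa3* (0.37) and by the adipogenic factors *Cebpb* (−0.34) and *Cebpa* (0.42), with adjusted *p* values of 0.446, 0.495 and 0.508. Named after their values were seen, *Ppara* averaged 58.3 ± 15.3 CPM in KO livers and 49.6 ± 4.2 CPM in wild-type livers, *Ppard* averaged 2.79 ± 0.14 CPM in KO livers and 2.66 ± 1.05 CPM in wild-type livers, and *Rxra* averaged 117 ± 19 CPM in KO livers and 116 ± 7 CPM in wild-type livers (SD, n = 3 each).

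Other known PPARgamma targets lay on both sides of 0. Of 28 listed, 27 were found and 23 tested, and edgeR called 0. Before adjustment 4 were higher and 5 lower with *p* under 0.05. DESeq2 called 2 higher and 1 lower, beside backgrounds of 1.26% and 1.6%. The median log2 fold change was −0.17, with 7 above 0 and 16 below. With unscaled library sizes it was 0.39, with 5 called higher, beside a background of 20.9%. *Ucp2*, a mitochondrial carrier, stood at 6.64, 6.34 and 6.28 CPM in KO livers, against 14.1, 11.5 and 9.19 CPM in wild-type livers, without overlap. Its log2 fold change was −0.86 ± 0.18 (SE), with an adjusted *p* of 0.0892 by edgeR and 0.00482 by DESeq2. *Pnpla2*, the main triglyceride lipase of droplets, differed by −0.53 on the log2 scale (adjusted *p* = 0.206), and *G0s2*, its inhibitor, stood at 8.34, 10.5 and 8.65 CPM in KO livers, against 3.45, 6.31 and 4.51 CPM in wild-type livers. The log2 fold change of *G0s2* was 0.94 ± 0.22 (SE), with an adjusted *p* of 0.129 by edgeR and 0.00726 by DESeq2.

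Of 18 relatives of the members within their gene families, 14 were tested and both edgeR and DESeq2 called 0. Before adjustment 1 was higher and 0 lower with *p* under 0.05. Their median log2 fold change was 0.08. With unscaled library sizes it was 0.74, with 3 called higher, beside a background of 20.9%. *Scarb2*, a relative of *Cd36*, had 0.38 (adjusted *p* = 0.381), *Cideb*, the CIDE protein of hepatocytes, had −0.24 (adjusted *p* = 0.589), and *Fabp1*, the liver fatty acid binding protein, had 0.28 (adjusted *p* = 0.624).

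The lipogenic genes were part of the reason for the choice of the set, so their values are also given as a description. All 14 passed the filter and had a log2 fold change above 0, from 0.15 to 0.99, with a median of 0.76. By edgeR 0 were called, and DESeq2 called 6 higher, beside backgrounds of 0.071% and 1.26%. Every KO library lay above every wild-type library for 6 of the 14, beside a background of 10.2%, and the groups overlapped for the rest. Nothing is read from these counts. *Elovl6*, a fatty acid elongase, stood at 155, 128 and 89.6 CPM in KO livers, against 68.4, 61.9 and 57.0 CPM in wild-type livers (log2 fold change 0.99 ± 0.21, SE). *Srebf1*, which encodes the lipogenic factor SREBP1, stood at 113, 139 and 156 CPM in KO livers, against 58.5, 64.3 and 95.4 CPM in wild-type livers. *Mid1ip1* and *Acaca*, an activator of acetyl-CoA carboxylase and the enzyme itself, had log2 fold changes of 0.62 and 0.67.

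**Figure D4:**
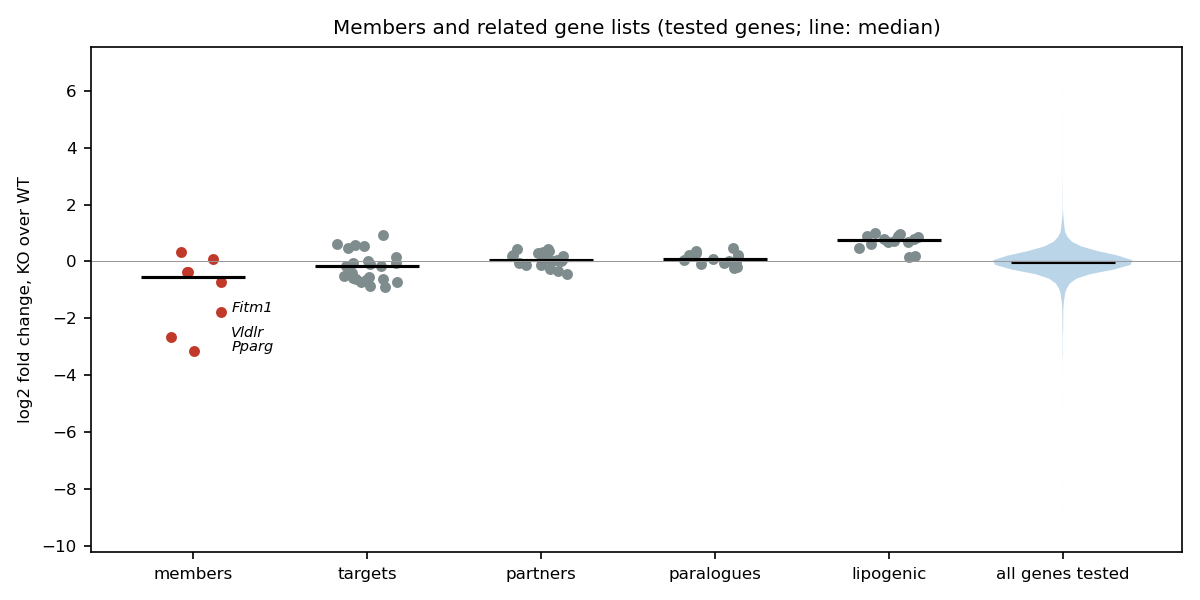
Log2 fold change (KO over wild-type) of each tested gene of the 10-gene set, of other PPARgamma targets, of partners and coregulators, of family relatives and of lipogenic genes, beside the distribution over all 14076 tested genes, with lines at the medians. *Pparg* (−3.16), *Vldlr* (−2.65) and *Fitm1* (−1.79), which with the lipogenic genes (median 0.76) gave the reason for the choice of the set, are labelled, and the medians of the targets, partners and relatives are −0.17, 0.06 and 0.08.

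Markers of other cell types were summed beside the members, and their part in the values above was not tested. Of 12 Kupffer cell and macrophage markers, 11 had a log2 fold change below 0, with a median of −0.26, and their summed level was 80.9 to 96.0 CPM in KO livers and 94.9 to 119 CPM in wild-type livers. Of 10 stellate cell markers, 8 were above 0, with a median of 0.46 and sums of 104 to 108 CPM in KO livers and 64.7 to 80.0 CPM in wild-type livers. All 13 endothelial markers were above 0, with a median of 0.25 and sums of 128 to 135 CPM in KO livers and 109 to 111 CPM in wild-type livers. By edgeR 0 genes of these lists were called. Before adjustment 2 Kupffer cell markers were lower, and 6 stellate cell and 2 endothelial markers higher, with *p* under 0.05. Nothing is read from these unadjusted counts, since the share of all genes is not given beside them. Of all 14076 tested genes, 6745 were above 0 and 7330 below. DESeq2 called 3 stellate cell markers higher, beside a background of 1.26%, and 0 of the others. With unscaled library sizes the medians were 0.40 for Kupffer cell, 1.07 for stellate cell and 0.90 for endothelial markers, beside 0.613 for all genes. On that scale 0, 6 and 10 of them were called higher, beside a background of 20.9%.

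The defining markers of fat and muscle were at or near 0. Of 9 adipocyte markers, *Retn* and *Adig* had 0 counts in every library. *Adipoq* had 4, 1 and 0 counts in KO livers and 0 in each wild-type liver. *Cfd* went the other way, with 0 counts in each KO liver and 2, 0 and 10 in wild-type livers. *Plin1* had 3 counts in KO 7-3 only, and *Lep* had 1 count in WT 8-1 only. Only *Adrb3* and *Lipe* were tested, and the summed level was 2.52 to 5.75 CPM in KO livers and 3.79 to 4.95 CPM in wild-type livers. Most of this sum was *Lipe*, at 4.78, 2.17 and 5.29 CPM in KO livers and 3.34, 3.80 and 3.91 CPM in wild-type livers. Of 10 muscle markers, *Myh7* had 0 counts in every library, and the sum was 0.277 to 0.464 CPM in KO livers and 0.418 to 0.662 CPM in wild-type livers. The 10 hepatocyte markers summed to 63813 to 88215 CPM in KO livers and 75356 to 81282 CPM in wild-type livers, with a median log2 fold change of 0.003. Single markers ranged from −0.88 to 0.31, with 5 above 0 and 5 below. By edgeR 0 of them were called, and DESeq2 called 1 lower, beside a background of 1.6%.

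The genes with the profile most like that of *Pparg* over the 6 libraries were *Dynlt1a* (Pearson *r* = 0.996), *Ifi27l2b* (0.991), *Lhpp* (0.991), *Rhno1* (0.986) and *Atp6v0d1* (0.983), from 9564 candidates on log2 CPM. The 6 points share the genotype difference, so the correlation is a description. In each of these 5 genes the KO libraries lay below the wild-type libraries, with KO 7-3 the highest of the KO livers, as for *Pparg*. The genes were picked for their likeness to *Pparg* in these same libraries, so this shared order is no separate result. *Lhpp*, which encodes a phosphatase, stood at 0.236, 1.01 and 0.197 CPM in KO livers, against 17.5, 17.4 and 20.9 CPM in wild-type livers. *Ifi27l2b* stood at 2.95, 5.19 and 3.42 CPM in KO livers, against 11.2, 11.1 and 11.0 CPM in wild-type livers. The size of the difference varied widely in the 5 genes, with log2 fold changes of −5.29 for *Lhpp*, −1.53 for *Ifi27l2b*, −0.96 for *Dynlt1a*, −0.82 for *Rhno1* and −0.31 for *Atp6v0d1*.

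**Figure D5:**
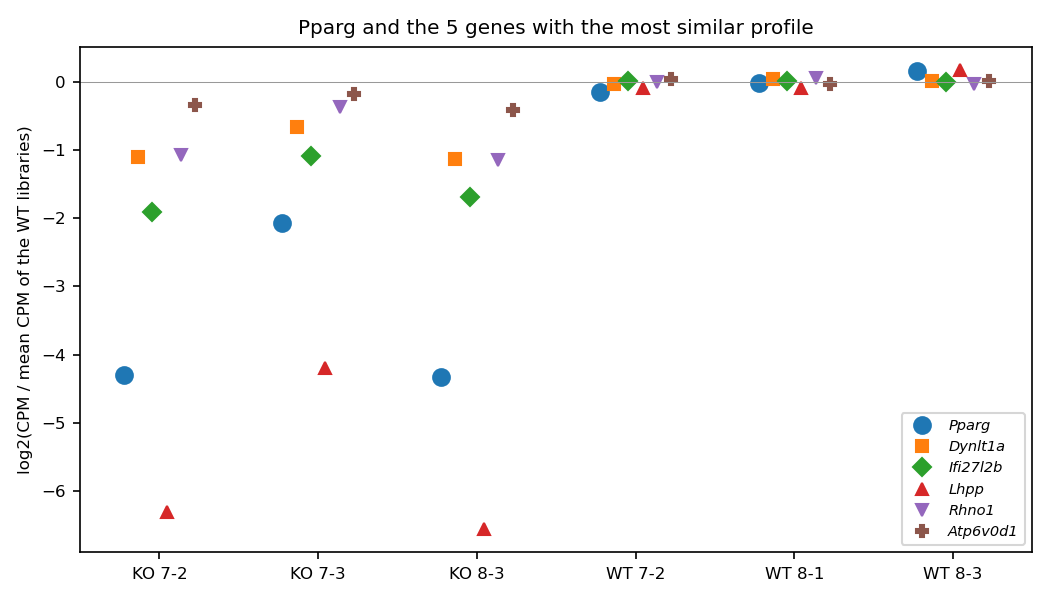
Log2 of CPM over the mean CPM of the wild-type libraries for *Pparg* and the 5 genes with the highest Pearson *r* to it, in each KO library (left) and each wild-type library (right). KO 7-3 has the highest KO value of each gene, which the choice by *r* favours, and *Lhpp* is the gene with the largest difference.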

How the data were processed

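Liver mRNA of 3 KO and 3 wild-type mice was sequenced from libraries of a directional kit. For every library the authors deposited unnormalised counts of each gene, obtained with Bedtools from unique and multiple alignments to mm10, with TopHat named in the submitters' processing notes. The aligner version, the annotation and the use of strand in counting were not given in the sources used here, so reads of overlapping genes may be shared. The deposited counts are integers whose totals differ between libraries, so they do not carry the quantile normalisation that the study's methods name.

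The main test was edgeR 4.0.16 (quasi-likelihood, TMM factors, filterByExpr with a minimum count of 10 and a minimum total of 15; R 4.3.3, limma 3.58.1), fitted on all genes, with Benjamini-Hochberg adjustment over the 14076 kept and calls under 0.05. The SE is the absolute log2 fold change over the square root of F. The biological coefficient of variation was 23.9%. Libraries were not copies of each other, with a chi-square per degree of freedom of at least 188. The test was checked on simulated counts.

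The members and lists were chosen with earlier results of these data known. Genes named are the 10 members, of each non-marker list every called gene and the 4 with the smallest *p*, the 5 genes most like *Pparg* with a mean log2 CPM above 1, and *Tcf7l2*. *Ppara*, *Ppard* and *Rxra* were added after their values were seen. A few results that this rule covers are not reported here. Promoter windows came from the RefSeq promoter table (GRCm38.p6), with chromosome 18 left out of all windows and shares. *Cidea* lies on chromosome 18, so its promoter was not looked at. Of the 10 members, 8 had windows among those kept. The TCF/LEF core (CTTTGAA or CTTTGAT, either strand) was in 0 of the 12 member windows and in 8.65% of all windows. A direct repeat of half-sites spaced by 1 base was in 0 and in 0.0396%. No match says only that these letters are not in this window. Transcript lengths came from GENCODE canonical transcripts of GRCm39. Alternatives were DESeq2 1.42.0, RLE factors, library sizes alone, quantile-normalised log2(count + 1) with limma, no filter, each library left out, and blocks on label numbers.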

Additional observations from a re-analysis of the deposited data

How the results depend on the processing

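All 13 alternatives kept the sign of *Pparg* (log2 fold change −4.29 to −2.60), *Cd36* (−0.88 to −0.09), *Vldlr* (−2.90 to −1.97), *Fitm1* (−1.90 to −1.19) and *Fitm2* (0.20 to 0.97). *Fabp4* turned to 0.25 with library sizes alone, where the median of all genes was 0.613. With 1 library left out, *Cidec* ranged from −0.75 to 0.11 and *Plin4* from −0.19 to 0.27. *Cidec* was also above 0 with library sizes alone (0.34) and in the 4-library block (0.50), and the cause was not tested. The count of genes called lower (53) was 241 with DESeq2, 88 with library sizes alone, 27 on quantile-normalised values and 21 to 69 with 1 library left out. The count called higher (10) was 190 with DESeq2, 2936 with library sizes alone, 4 on quantile-normalised values, 23 without the filter and 3 to 18 with 1 library left out. Members called lower (2) were 0 to 1 with 1 library left out. Members called higher (0) were 1, *Fitm2*, with library sizes alone, beside a background of 20.9%. With fewer libraries, fewer degrees of freedom remain.

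The label numbers 7-2 and 8-3 occur in both groups, with no source for a pairing, and deviations of same-numbered libraries correlated at 0.008 and −0.007. A replicate block on the leading number called 33 genes lower and 6 higher, with 0 members lower. A block on the full number, with the 4 libraries that share one, called 33 genes lower, with 1 member lower.

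At this depth *Cidea*, *Mogat1* and *Vldlr* rest on 4, 33 and 75 counts over all libraries, so smaller differences of theirs were not detectable.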
